A study of Mus musculus with 24 samples.

Results

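The genes *Eya1*, *Rab3c*, *Rab27b*, *Ms4a8a*, *Vstm2a*, *Slc15a2*, *Slc26a4*, *Peak1*, *Sybu* and *Dhrs3* were followed across lung tumours driven by 3 mutant forms of the EGF receptor and across normal lungs. They are 10 of the 18193 genes measured, and 25 of the 34945 probe sets annotated to a single gene belong to them. They were picked on their measured levels, for a difference between the L858R, the L858R+T790M and the T790M tumours. The levels and differences among tumour genotypes given here therefore describe the choice and carry no test. So do the differences between each tumour genotype and its normal lungs, and between both sets of normal lungs, which entered the strain-adjusted comparison of tumours.

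The study profiled 24 mouse lung samples on Affymetrix mouse expression arrays, 1 sample to an array. The tumours were visible nodules dissected from mice that carried both a driver transgene, written C in the labels, and a human EGFR transgene, and that ate a doxycycline diet over 3 to 6 months. The group L858R held 4 arrays with the strain label FVB mixed, L858R+T790M held 5 arrays labelled FVB, and T790M held 5 arrays labelled FVB. In direct comparisons of L858R with the other tumours, genotype and strain label therefore cannot be told apart. Normal lungs came from littermates without transgenes or with 1 of them, also on doxycycline, and comprised 5 arrays labelled FVB mixed (mixed-strain normals) and 5 labelled FVB (FVB normals). In this kind of model doxycycline switches on the mutant receptor in the cells that the driver reaches, whereas a macro-dissected nodule also holds blood vessels, stroma and immune cells. Whether every array is from its own mouse is not labelled, and p-values hence refer to the spread among these arrays, which may be partly technical.

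L858R is an activating substitution in the kinase domain of EGFR that sensitises lung cancers to EGFR inhibitors, and T790M is a substitution in the same domain known for resistance to the first such drugs. The 10 genes belong to no single pathway. *Rab3c*, *Rab27b* and *Sybu* act in the traffic of secretory vesicles, *Slc26a4* and *Slc15a2* carry anions and small peptides across epithelial membranes, *Eya1*, *Dhrs3* and *Peak1* act in transcription, retinoid metabolism and kinase signalling, and *Ms4a8a* and *Vstm2a* encode a membrane protein and an immunoglobulin-domain protein. Alveolar type 2 cells, from which many such tumours are thought to arise, are themselves secretory cells that release surfactant and take up peptides.

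All values are log2 probe set intensities, and a difference of 1 on this scale is a doubling. Array values ran between 3.08 and 14.9, and array medians between 7.21 and 7.34. The first principal component over all genes carried 58.1% of the variance and placed 13 tumours between 12.6 and 59.5 and the normal lungs between -55.2 and -43.2. T790M replicate 1 stood apart from the other tumours at -2.96. The median SD of a gene was 0.183 in L858R tumours, 0.158 in L858R+T790M tumours, 0.186 in T790M tumours, 0.109 in mixed-strain normals and 0.0991 in FVB normals. No array was a copy of another, and at most 3.24% of genes had the same value, to the 2 decimals given, on both arrays of a pair. Surfactant protein gene *Sftpc*, which defines alveolar type 2 cells, was high throughout, with values between 14.66 and 14.9. The 9 measured of 10 alveolar type 2 markers averaged 13.26 to 13.42 in L858R tumours, 12.99 to 13.39 in L858R+T790M tumours and 12.95 to 13.32 in T790M tumours, against 12.60 to 12.80 in mixed-strain normals and 12.61 to 12.70 in FVB normals.

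*Ms4a8a* gave the widest separation between tumour groups, of which only L858R had the mixed strain label. MS4A8A is a tetraspan protein of the CD20 family that in mouse has been described on alternatively activated macrophages. In bulk RNA, more cells of a type cannot be told apart from more RNA per cell, for this gene and the others. The only *Ms4a8a* probe set read 9.82, 9.84, 8.10 and 8.87 in the L858R tumours. In the L858R+T790M tumours it read 5.53, 5.92, 5.96, 5.91 and 6.06, and in the T790M tumours 5.40, 5.71, 5.75, 5.82 and 5.78. All 4 L858R tumours thus lay above all 10 other tumours. Mixed-strain normals read 7.05, 7.46, 5.56, 7.21 and 5.48, and FVB normals 5.48, 5.43, 5.69, 5.94 and 5.77. The mixed-strain normals split, with replicates 1, 2 and 4 above 7 and replicates 3 and 5 within the range of the FVB normals, but even the highest of them lay under the lowest L858R tumour. *Ms4a8a* was 2.61 ± 0.36 log2 units (SE) higher in L858R tumours than in mixed-strain normals, a fold of 6.09, against 0.21 ± 0.34 in L858R+T790M tumours and 0.03 ± 0.34 in T790M tumours set against FVB normals.

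*Vstm2a*, whose product in mouse is a secreted factor described in fat cell precursors, had the same order of tumour groups. It read 8.28, 8.26, 7.32 and 7.04 in L858R tumours, 6.31, 5.26, 5.66, 6.76 and 5.81 in L858R+T790M tumours, and 5.30, 5.56, 6.10, 5.26 and 6.20 in T790M tumours. Normal lungs read 6.08, 6.00, 5.81, 5.47 and 5.76 in the mixed-strain set and 5.93, 5.72, 5.88, 5.86 and 5.97 in the FVB set. No L858R tumour overlapped any other sample, while the other 4 groups overlapped one another. The difference from the matching normals was 1.90 ± 0.28 in L858R tumours, 0.09 ± 0.26 in L858R+T790M tumours and -0.19 ± 0.26 in T790M tumours.

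The promoter regions of *Ms4a8a* and *Vstm2a*, the genes at which L858R tumours stood above every other sample by most, are shown with that of *Slc26a4*, which separated T790M tumours from the other tumours. They come from RefSeq (build GRCm38.p6), begin 250 bases before a start site, stop where the annotated gene begins, and are written in the direction of the gene. Capitals mark matches to the motifs TGANTCA (AP-1), CCGGAAG (ETS), AGGTCA (a nuclear receptor element) and CTCAAG (the NKX2-1 core), searched on both strands.
*Ms4a8a*, chr19:11081104-11081353, minus strand: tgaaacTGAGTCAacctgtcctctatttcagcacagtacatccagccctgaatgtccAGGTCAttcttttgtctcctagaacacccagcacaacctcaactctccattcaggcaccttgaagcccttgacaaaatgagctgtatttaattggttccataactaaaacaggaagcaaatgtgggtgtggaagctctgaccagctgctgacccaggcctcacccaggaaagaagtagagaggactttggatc
*Vstm2a*, chr11:16257492-16257741, plus strand: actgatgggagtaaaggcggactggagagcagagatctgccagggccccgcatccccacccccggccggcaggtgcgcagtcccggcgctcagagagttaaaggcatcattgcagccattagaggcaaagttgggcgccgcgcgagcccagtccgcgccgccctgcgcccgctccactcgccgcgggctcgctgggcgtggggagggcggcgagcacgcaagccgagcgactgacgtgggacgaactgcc
*Slc26a4*, chr12:31560056-31560234, minus strand: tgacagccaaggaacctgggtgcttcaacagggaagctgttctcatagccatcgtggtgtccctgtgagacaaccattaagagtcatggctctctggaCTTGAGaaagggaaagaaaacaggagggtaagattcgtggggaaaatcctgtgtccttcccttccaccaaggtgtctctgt

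*Ms4a8a* held an AP-1 match from base -244 to -238 and an AGGTCA match from -193 to -188. *Slc26a4* held a CTCAAG match on the opposite strand from -152 to -147, and *Vstm2a* held none of the 4 motifs. Of 32851 RefSeq promoter windows of the same length (250 bases before to 50 after the start), 7.81% held the AP-1 motif, 8.86% the ETS motif, 16.26% AGGTCA and 15.9% CTCAAG. The table had windows for 7 of the 10 genes. Among the other 4 genes with a window, *Slc15a2* had a CTCAAG match from -141 to -136 on the opposite strand, and *Rab3c*, *Peak1* and *Dhrs3* had no match.

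**Figure D1:**
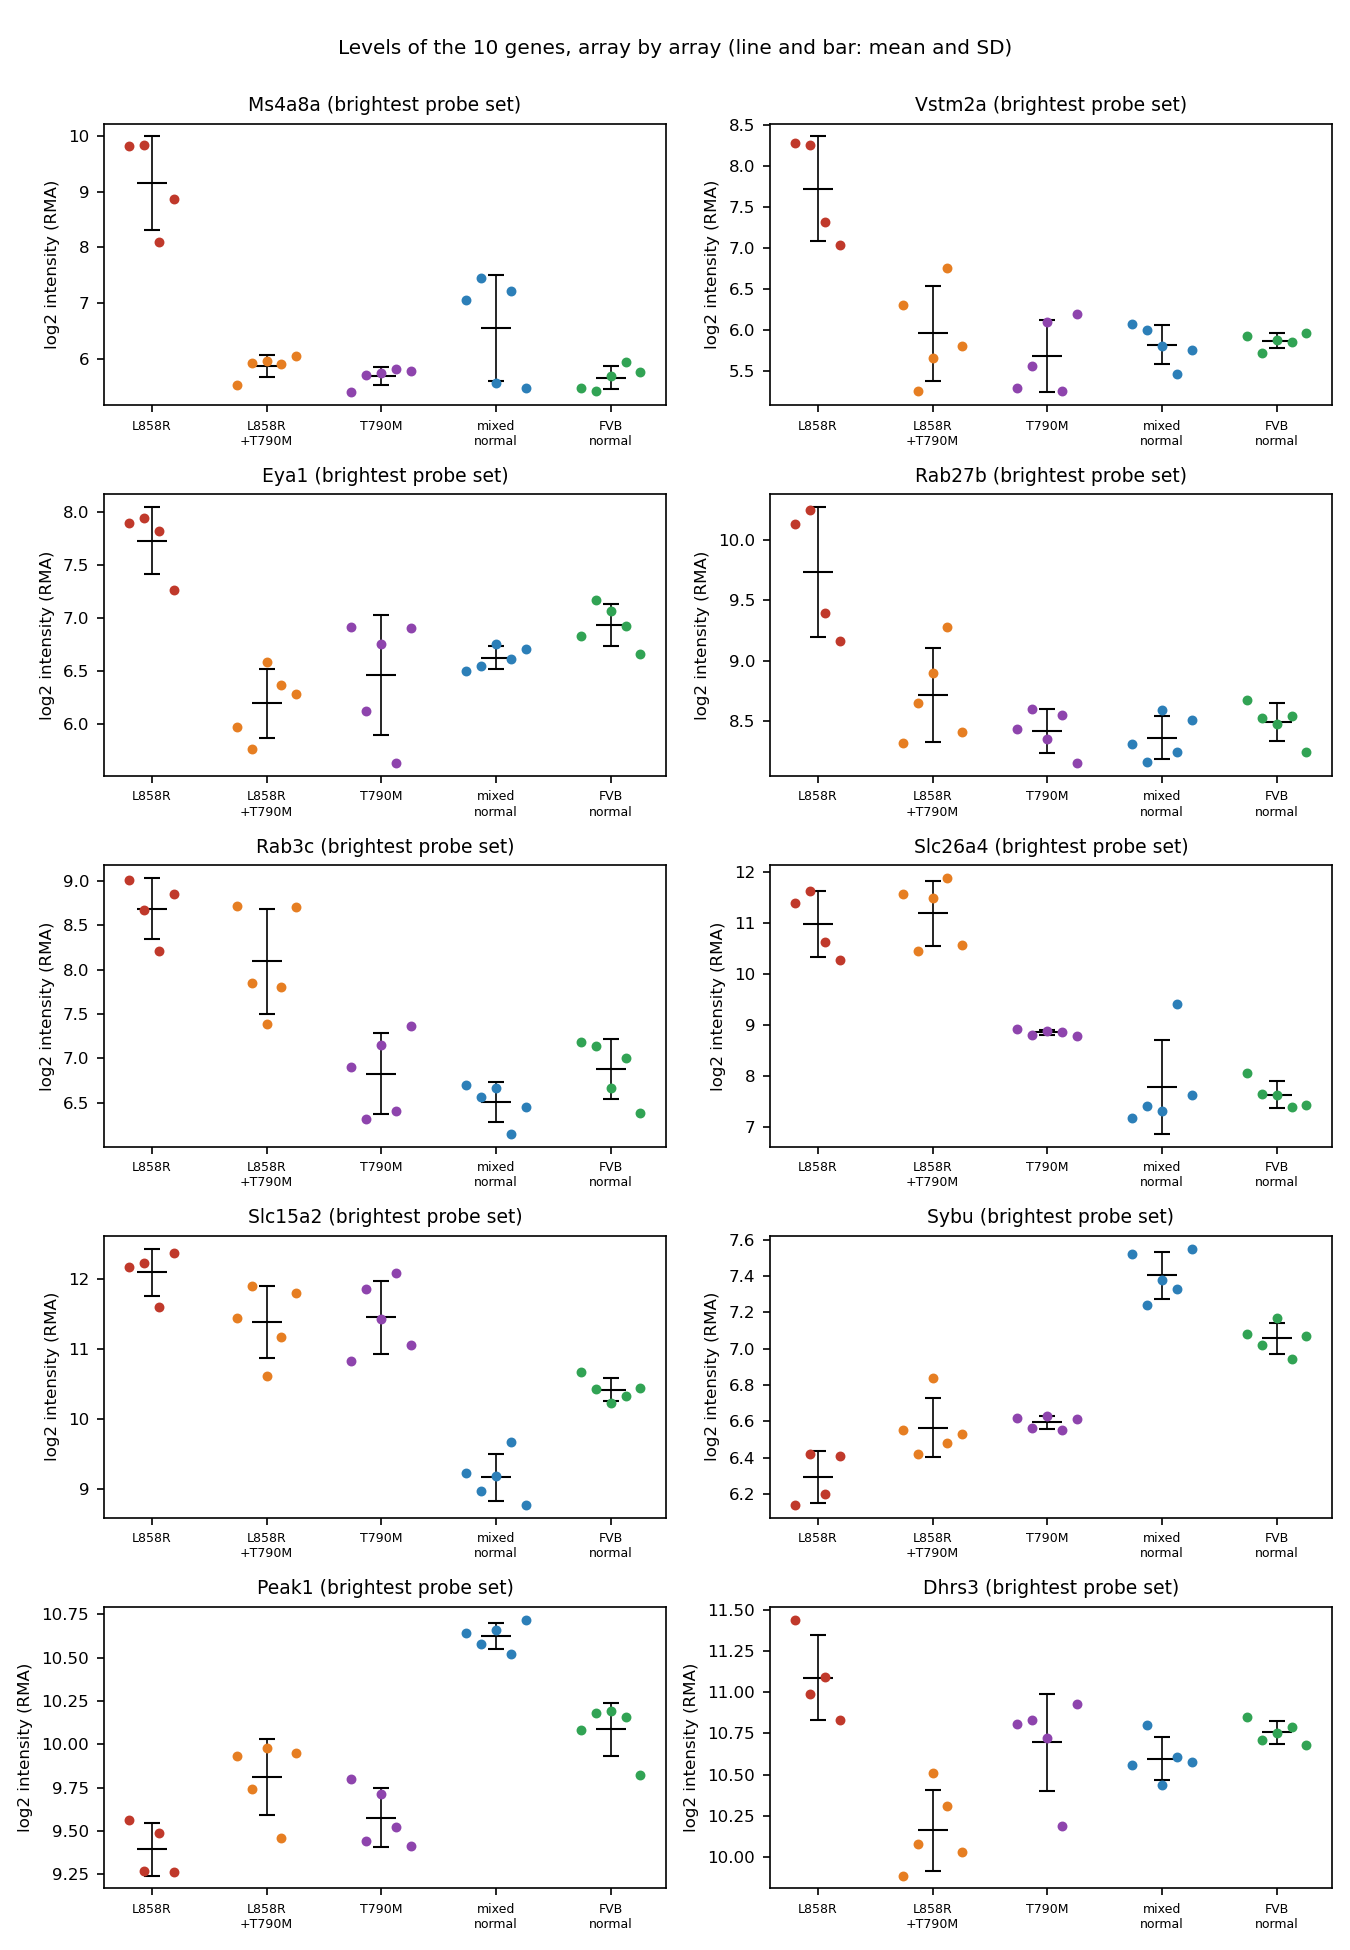
Log2 intensity of the brightest probe set of each of the 10 genes (vertical axis) in the 3 tumour groups and both sets of normal lungs, 1 point per array, with group mean and SD. *Ms4a8a*, *Vstm2a* and *Eya1* are highest in all 4 L858R tumours, *Slc26a4* is lower in T790M tumours than in the other tumours, and *Sybu* is lower in all 14 tumours than in the normal lungs.

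*Eya1* encodes a transcriptional coactivator and phosphatase that works with homeodomain factors and is needed in mouse for the branching lung. Its brightest probe set read 7.89, 7.94, 7.82 and 7.26 in L858R tumours. The other tumours were lower, at 5.97, 5.76, 6.58, 6.37 and 6.28 with L858R+T790M and at 6.91, 6.12, 6.75, 5.63 and 6.90 with T790M. Mixed-strain normals read 6.5, 6.55, 6.75, 6.61 and 6.71 and FVB normals 6.83, 7.17, 7.06, 6.92 and 6.66. L858R tumours were the top group with no overlap, and every L858R+T790M tumour lay under every FVB normal. Differences from the matching normals thus ran in opposite directions, at 1.10 ± 0.22 in L858R tumours, -0.74 ± 0.20 in L858R+T790M tumours and -0.47 ± 0.20 in T790M tumours. On all 3 probe sets the L858R mean was above the means of the other tumours, by 0.23 to 1.54 against L858R+T790M and by 0.40 to 1.27 against T790M.

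Among the vesicle genes, *Rab27b* encodes a GTPase that docks secretory granules and exosome precursors at the plasma membrane. Its brightest probe set read 10.13, 10.25, 9.39 and 9.16 in L858R tumours, 8.32, 8.65, 8.90, 9.28 and 8.41 in L858R+T790M tumours, and 8.43, 8.60, 8.35, 8.55 and 8.15 in T790M tumours. The normal lungs covered 8.16 to 8.59 in the mixed-strain set and 8.24 to 8.67 in the FVB set. L858R tumours exceeded all T790M tumours and all normal lungs, but 1 L858R+T790M tumour, replicate 4, reached into their range. The difference from the matching normals was 1.37 ± 0.20, 0.22 ± 0.19 and -0.07 ± 0.19 in L858R, L858R+T790M and T790M tumours. Among the tumours, all 4 probe sets had the highest mean with L858R and the lowest with T790M, although the probe set 1443764_x_at covered only 7.30 to 8.15 over all arrays.

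*Rab3c*, a GTPase of the RAB3 group that acts on regulated secretion in neurons and endocrine cells, was high in both groups that carry L858R. It read 9.01, 8.67, 8.21 and 8.85 in L858R tumours and 8.72, 7.85, 7.39, 7.80 and 8.70 in L858R+T790M tumours. In T790M tumours it read 6.90, 6.32, 7.15, 6.41 and 7.36. The lowest tumour with L858R, at 7.39, was just above the highest T790M tumour, at 7.36. Mixed-strain normals read 6.70, 6.57, 6.67, 6.15 and 6.45 and FVB normals 7.18, 7.14, 6.67, 7.0 and 6.39, so T790M tumours overlapped both sets of normal lungs. Relative to the matching normals *Rab3c* stood 2.18 ± 0.26 higher in L858R tumours (4.52-fold), 1.22 ± 0.25 higher in L858R+T790M tumours (2.32-fold) and at -0.05 ± 0.25 in T790M tumours. Of its 5 probe sets, 4 had this order of tumour groups, while 1449798_at stayed between 3.10 and 3.55 on all arrays.

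*Rab3c* also shows how far probe sets of a gene can differ over T790M tumours. On 1449494_at the T790M tumours read 5.45, 5.15, 5.56, 5.64 and 5.80, against 5.32, 4.97, 4.63, 4.75 and 4.06 in FVB normals. On that probe set their means differed by 0.77, whereas on the brightest probe set the T790M mean was 0.05 below that of the FVB normals.

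*Sybu* encodes syntabulin, which links vesicles that carry syntaxin to the kinesin-1 motor, and it was lower in every tumour than in every normal lung. It read 6.14, 6.42, 6.20 and 6.41 in L858R tumours, 6.55, 6.42, 6.84, 6.48 and 6.53 in L858R+T790M tumours, and 6.62, 6.56, 6.63, 6.55 and 6.61 in T790M tumours. Mixed-strain normals read 7.52, 7.24, 7.38, 7.33 and 7.55 and FVB normals 7.08, 7.02, 7.17, 6.94 and 7.07. The normal sets did not overlap, with mixed-strain normals 0.35 ± 0.08 above FVB normals. The mean of L858R tumours was 0.27 below that of L858R+T790M tumours, with an overlap at 6.42, and 0.30 below that of T790M tumours, without overlap. After subtraction of the matching normals these gaps became -0.62 ± 0.11 and -0.65 ± 0.11. The difference from the matching normals was -1.11 ± 0.08 in L858R tumours, -0.49 ± 0.08 in L858R+T790M tumours and -0.46 ± 0.08 in T790M tumours.

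Of the transporters, *Slc26a4* encodes pendrin, an exchanger of chloride for bicarbonate or iodide known from the thyroid, the inner ear and inflamed airways. It read 11.40, 11.64, 10.63 and 10.27 in L858R tumours and 11.57, 10.46, 11.49, 11.89 and 10.58 in L858R+T790M tumours. T790M tumours were tightly grouped at 8.93, 8.81, 8.88, 8.87 and 8.79. Every tumour with L858R was thus above every T790M tumour by more than 1 log2 unit. Mixed-strain normals read 7.17, 7.42, 7.31, 9.42 and 7.63, and FVB normals 8.06, 7.65, 7.62, 7.39 and 7.44. Replicate 4 of the mixed-strain normals stood far above the other normal lungs and above all T790M tumours, while all T790M tumours were above all FVB normals. Without that array the strain-adjusted gap between L858R and L858R+T790M tumours was 0.04, and with it -0.37 ± 0.51. The differences from the matching normals were 3.20 ± 0.37 in L858R tumours (9.16-fold), 3.57 ± 0.35 in L858R+T790M tumours (11.8-fold) and 1.22 ± 0.35 in T790M tumours (2.34-fold).

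*Slc15a2* encodes PEPT2, a proton-coupled carrier of dipeptides and tripeptides found in alveolar type 2 cells and kidney, and its mean was higher in each tumour group than in either set of normal lungs. On the brightest probe set L858R tumours read 12.17, 12.24, 11.61 and 12.38. L858R+T790M tumours read 11.45, 11.90, 10.62, 11.17 and 11.81, and T790M tumours 10.83, 11.86, 11.44, 12.09 and 11.06. The 3 tumour groups overlapped. Mixed-strain normals read 9.24, 8.97, 9.19, 9.68 and 8.78, against 10.67, 10.44, 10.23, 10.33 and 10.45 in FVB normals, and the normal sets were apart by -1.25 ± 0.24. L858R tumours accordingly exceeded their normals by 2.93 ± 0.26, against 0.97 ± 0.24 in L858R+T790M tumours and 1.03 ± 0.24 in T790M tumours. Between tumours the direct gap was 0.71 to L858R+T790M and 0.64 to T790M, and the strain-adjusted gap 1.96 ± 0.35 and 1.90 ± 0.35.

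The other 2 probe sets of *Slc15a2* did not repeat the higher level of L858R tumours. On 1424730_a_at the L858R tumours read 11.39, 11.41, 11.37 and 11.62, within the range of 11.11 to 12.37 of L858R+T790M tumours and of 10.93 to 11.78 of T790M tumours. On 1447808_s_at the L858R mean was 0.44 below the L858R+T790M mean. Both probe sets split the mixed-strain normals. They read 7.75, 7.84, 9.10, 8.39 and 9.15 on the first and 6.56, 6.78, 9.01, 8.03 and 9.16 on the second, against 9.09 to 9.52 and 8.72 to 9.61 in FVB normals. Replicates 1, 2 and 4, the arrays with raised *Ms4a8a*, were the low ones, and replicates 3 and 5 lay within the FVB range. The brightest probe set did not divide the arrays in this way.

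**Figure D2:**
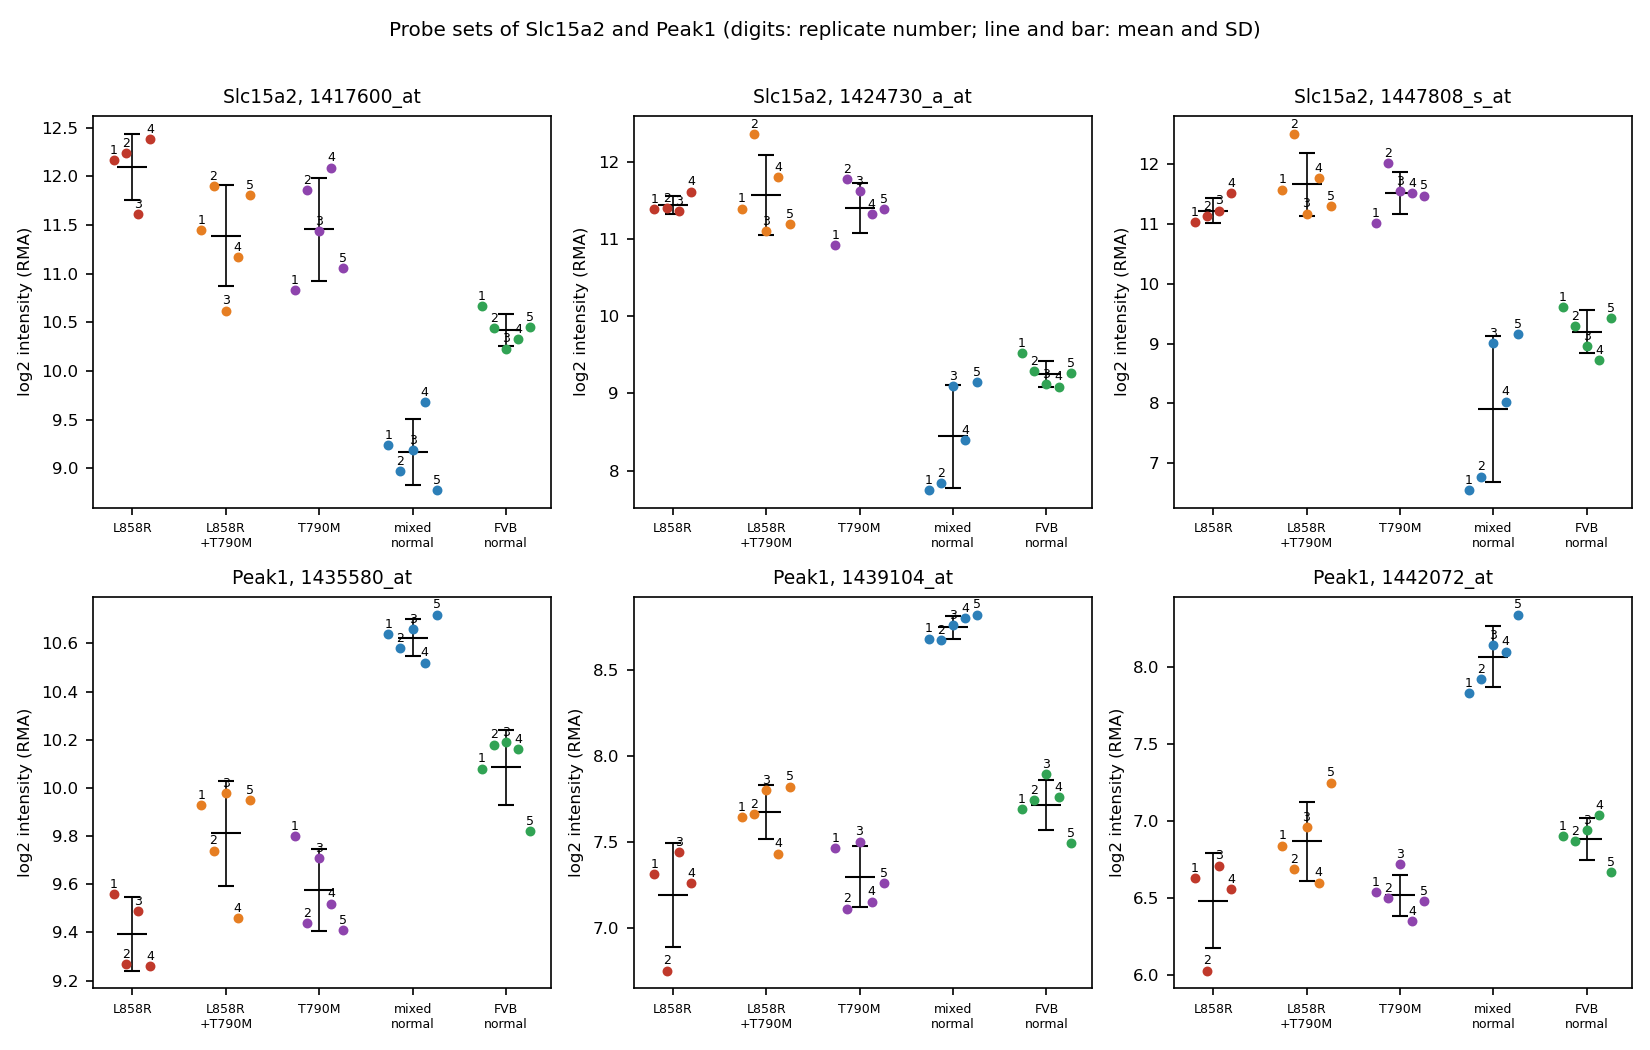
Log2 intensity (vertical axis) of the 3 probe sets of *Slc15a2* and the 3 brightest of *Peak1*, by group, with the replicate number above each array and group mean and SD. The mixed-strain normals spread from 6.56 to 9.16 on 1447808_s_at of *Slc15a2*, and on all 3 *Peak1* probe sets they lie above the FVB normals.

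*Peak1* encodes a pseudokinase scaffold that acts with SRC, SHC1 and GRB2 downstream of EGFR. Its brightest probe set read 9.56, 9.27, 9.49 and 9.26 in L858R tumours, 9.93, 9.74, 9.98, 9.46 and 9.95 in L858R+T790M tumours, and 9.80, 9.44, 9.71, 9.52 and 9.41 in T790M tumours. Mixed-strain normals read 10.64, 10.58, 10.66, 10.52 and 10.72, and FVB normals 10.08, 10.18, 10.19, 10.16 and 9.82. The tumour groups overlapped, and the normal sets did not, with a difference of 0.54 ± 0.10. The L858R mean was 0.42 below the L858R+T790M mean and 0.18 below the T790M mean, and the strain-adjusted gaps were -0.96 ± 0.15 and -0.72 ± 0.15. Relative to the matching normals *Peak1* stood at -1.23 ± 0.11 in L858R tumours, -0.27 ± 0.10 in L858R+T790M tumours and -0.51 ± 0.10 in T790M tumours. The normal sets differed by more on 1442072_at, with 7.83 to 8.34 in mixed-strain normals against 6.67 to 7.04 in FVB normals. There L858R tumours covered 6.03 to 6.71 and T790M tumours 6.35 to 6.72. On 1440293_at all arrays lay between 5.92 and 6.30.

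*Dhrs3* encodes a reductase that turns retinal into retinol and so limits retinoic acid. It read 11.44, 10.99, 11.09 and 10.83 in L858R tumours, 9.89, 10.08, 10.51, 10.31 and 10.03 in L858R+T790M tumours, and 10.81, 10.83, 10.72, 10.19 and 10.93 in T790M tumours. Normal lungs read 10.56, 10.80, 10.44, 10.61 and 10.58 in the mixed-strain set and 10.85, 10.71, 10.75, 10.79 and 10.68 in the FVB set. L858R tumours were above all mixed-strain normals, L858R+T790M tumours below all FVB normals, and T790M tumours overlapped both. The differences from the matching normals were 0.49 ± 0.14, -0.59 ± 0.13 and -0.06 ± 0.13 in L858R, L858R+T790M and T790M tumours.

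**Figure D3:**
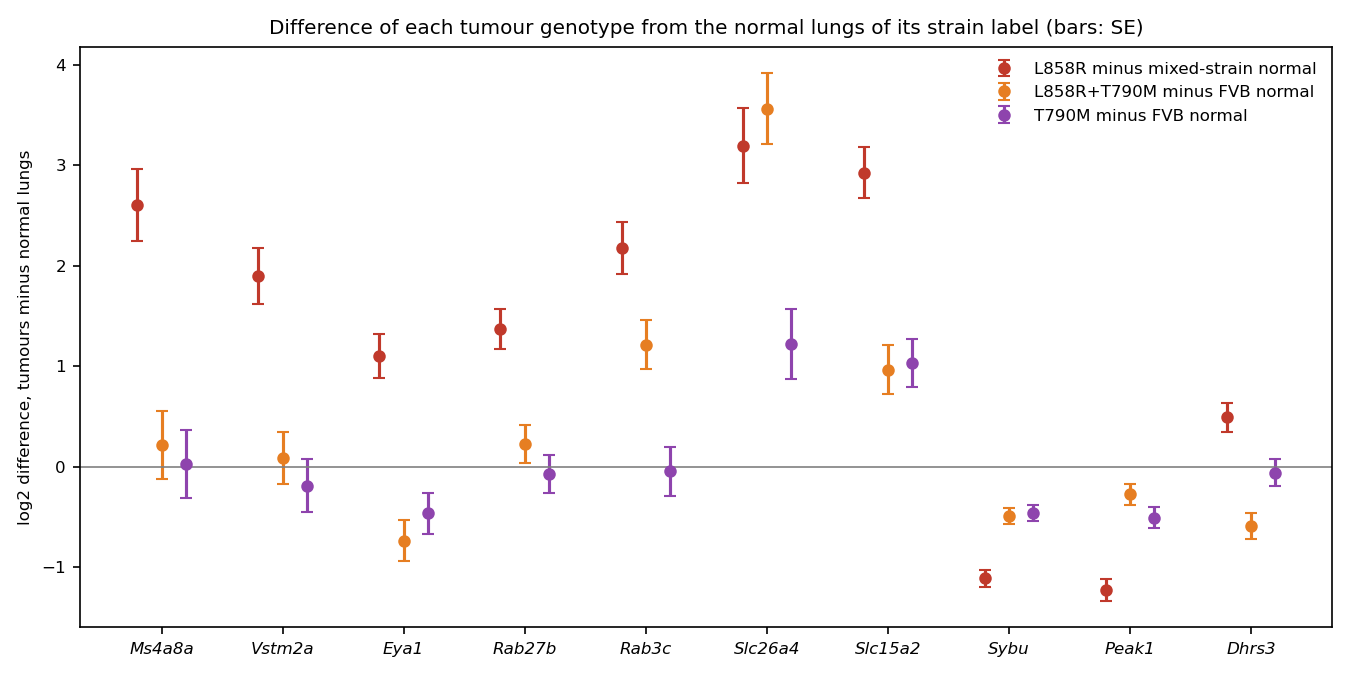
Log2 difference (vertical axis) between each tumour genotype and the normal lungs of its strain label for the brightest probe set of each gene, with SE bars. The points of L858R tumours lie farthest from 0 for 8 of the 10 genes, and those of L858R+T790M tumours for *Slc26a4* and *Dhrs3*.

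Read together, the arrays of L858R and L858R+T790M tumours did not overlap for 4 of the 10 genes, those of L858R and T790M tumours for 7, and those of L858R+T790M and T790M tumours for 2. Over all genes the shares without overlap were 4.66%, 5.93% and 2.26%, and since the genes were chosen for these differences nothing is read from the counts. Against the matching normals, all 10 genes were apart in L858R tumours, 5 in L858R+T790M tumours and 4 in T790M tumours, beside 35.8%, 29.8% and 29.8% of all genes. The mixed-strain and FVB normals were apart for 3 genes, *Slc15a2*, *Peak1* and *Sybu*, beside 10.4% of all genes.

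All 14 tumours together were then compared with normal lungs, with limma across 18193 genes at an adjusted p under 0.05. The normal sets were first weighted to match the strain labels of the tumours. This average is uncorrelated with direct differences between tumour groups, but it shares its normal lungs, unequally weighted, with the strain-adjusted differences. With all 10 normal lungs weighted equally the average is uncorrelated with both. Both statements hold for an equal spread in all groups, which the model assumes. By either weighting 6 genes averaged higher in tumours, 2 lower, and *Eya1* and *Dhrs3* were not called. Of all genes 29.8% were called higher and 23.2% lower with matched weights, and 31.3% and 23.4% with equal weights, so most genes pass the test one way or the other. *Slc26a4* rose by 2.62 ± 0.24 (6.16-fold, adjusted p = 9.32e-09, and 4.31e-09 with equal weights). *Slc15a2* rose by 1.55 ± 0.17 (2.93-fold, adjusted p = 8.45e-08, and 3.29e-09 with equal weights), and its other probe sets differed by 2.46 ± 0.17 (5.49-fold) and 2.65 ± 0.27 (6.27-fold). For *Rab3c* the average was 1.04 ± 0.17 higher (2.06-fold, adjusted p = 2.15e-05, and 4.00e-06 with equal weights), with T790M tumours at the level of FVB normals. The *Rab3c* average thus rests on the L858R and L858R+T790M tumours, whose high values chose the gene. On its brightest probe set no rise is shown for T790M tumours.

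For *Ms4a8a*, *Vstm2a* and *Rab27b* the average rests on the 4 L858R tumours, whose high values chose these genes, and no rise is shown for the other 10 tumours. Their averages were 0.83 ± 0.23 (adjusted p = 0.00464, and 0.0181 with equal weights), 0.51 ± 0.18 (adjusted p = 0.0213, and 0.0134 with equal weights) and 0.45 ± 0.13 (adjusted p = 0.00594, and 0.00242 with equal weights). *Vstm2a* was no longer called without L858R replicate 1 (adjusted p = 0.104), 2 (adjusted p = 0.105) or 3 (adjusted p = 0.0588), nor was *Rab27b* with the median over its probe sets (0.19, adjusted p = 0.107).

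*Sybu* fell by 0.66 ± 0.05 (adjusted p = 2.16e-09, and 1.76e-10 with equal weights) and *Peak1* fell by 0.63 ± 0.07 (adjusted p = 1.61e-07, and 5.94e-09 with equal weights) in the same comparison. *Eya1* stood at -0.11 ± 0.14 (adjusted p = 0.523) and *Dhrs3* at -0.09 ± 0.09 (adjusted p = 0.411), averages over tumour groups that lay on either side of their normals. The same 8 calls were made without T790M replicate 1.

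Markers of other cell types also differed between the groups. The 8 measured endothelial markers averaged 8.95 to 10.18 in L858R, 8.38 to 10.47 in L858R+T790M and 8.33 to 10.83 in T790M tumours, against 11.72 to 11.93 in mixed-strain and 11.40 to 12.06 in FVB normals. The 8 fibroblast markers covered 8.24 to 9.91, 8.15 to 9.72 and 8.04 to 10.00 in these tumour groups, against 11.29 to 11.43 in mixed-strain and 10.50 to 11.13 in FVB normals. Both lists, like *Sybu* and *Peak1*, had lower means in tumours than in normal lungs, and fibroblast markers, like these genes, were higher in mixed-strain than in FVB normals without overlap. The 8 alveolar type 1 markers were likewise higher in mixed-strain (12.42 to 12.60) than in FVB normals (11.58 to 12.36) without overlap. They averaged 11.32 to 12.12 in L858R, 11.06 to 12.12 in L858R+T790M and 10.03 to 11.48 in T790M tumours. In tumours against normal lungs 6 of them were called lower and 2 higher, beside 23.2% and 29.8% of all genes. The part of any of these cell types in the levels of *Sybu* and *Peak1* was not tested.

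Alveolar macrophage markers, of which 6 of 8 were measured, averaged 11.07 to 12.06 in L858R, 9.87 to 11.39 in L858R+T790M and 9.91 to 10.40 in T790M tumours, against 10.11 to 10.46 in mixed-strain and 10.42 to 10.65 in FVB normals. The macrophage receptor gene *Marco* averaged 10.43 ± 1.11 in L858R tumours (SD, n = 4), 10.57 ± 1.36 in L858R+T790M tumours and 7.72 ± 0.74 in T790M tumours, against 7.01 ± 0.51 in mixed-strain and 6.93 ± 0.24 in FVB normals (SD, n = 5 each). *Chil3* and *Plet1* averaged highest in L858R tumours, at 14.07 and 12.81, against 13.10 and 11.22 in mixed-strain and 13.40 and 11.50 in FVB normals. *Fabp4* was not highest there. It averaged 9.62 ± 0.78 in L858R, 9.51 ± 0.40 in L858R+T790M and 9.82 ± 0.31 in T790M tumours, against 8.88 ± 0.70 in mixed-strain and 9.94 ± 0.45 in FVB normals. *Car4* did not follow *Marco*, with 11.61 ± 0.53 in L858R, 10.37 ± 0.79 in L858R+T790M and 10.37 ± 0.33 in T790M tumours, against 11.85 ± 0.13 in mixed-strain and 11.65 ± 0.27 in FVB normals. *Krt79* averaged 11.15 ± 0.47, 9.16 ± 1.12 and 8.06 ± 0.67 in the same tumour groups, against 9.66 ± 0.29 in mixed-strain and 9.76 ± 0.24 in FVB normals. In tumours against normal lungs 3 of the 6 measured macrophage markers were called higher and 1 lower, beside 29.8% and 23.2% of all genes. The list mean reached its highest values in L858R tumours, in which *Ms4a8a*, *Rab3c* and *Slc26a4* were also high. *Slc26a4* averaged more with L858R+T790M (11.20 against 10.99). Activated macrophage markers, 5 of 6 measured, averaged 11.13 to 11.44 in L858R, 10.39 to 11.56 in L858R+T790M and 10.45 to 11.08 in T790M tumours. They averaged 9.37 to 9.81 in mixed-strain and 9.57 to 9.84 in FVB normals. The highest of these means was in an L858R+T790M tumour. The part of macrophages in the genes was not tested. Neuroendocrine markers, 8 of 10 measured, averaged 5.48 to 5.69 in L858R tumours, 5.64 to 6.09 in L858R+T790M tumours and 5.87 to 6.79 in T790M tumours, against 5.90 to 6.12 in mixed-strain and 5.81 to 6.03 in FVB normals. The ranges of L858R and L858R+T790M tumours overlapped. *Ddc* averaged 6.08 in L858R, 6.64 in L858R+T790M and 9.27 in T790M tumours. *Scg5* averaged 4.25, 5.00 and 5.52 in these groups, with an SD of 1.88 in T790M tumours, and *Uchl1* 6.04, 6.56 and 6.53. The tumour means of *Chga*, *Chgb*, *Syp*, *Insm1* and *Resp18* lay close together, such as 5.22, 5.33 and 5.28 for *Chga*. The part of neuroendocrine cells in the levels of *Rab3c* and *Rab27b* was not tested. The 5 ionocyte markers averaged 7.27 to 7.43 in L858R, 6.92 to 7.31 in L858R+T790M and 6.85 to 7.23 in T790M tumours, against 7.04 to 7.16 in mixed-strain and 6.97 to 7.16 in FVB normals. Of these markers *Atp6v0d2* averaged 12.02 in L858R, 10.90 in L858R+T790M and 10.63 in T790M tumours, against 9.92 in mixed-strain and 10.09 in FVB normals. *Foxi1* averaged 6.03, 6.09 and 5.97 in the same tumour groups. Like *Foxi1*, the markers *Ascl3*, *Atp6v1b1* and *Coch* did not average highest in L858R tumours. The part of ionocytes in the levels of *Slc26a4* was not tested.

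The genes most like each member over the 14 tumours were taken by Pearson correlation among the 4933 or 4934 other genes with an SD of at least 0.3. These values describe 3 groups of tumours and rest largely on the gaps between them. *Ms4a8a* was closest to *Cd200r4* (r = 0.967), *Lipf* (r = 0.964) and *Nxpe4* (r = 0.948). *Cd200r4*, of the CD200 receptor family, read 8.84 to 9.95 in L858R tumours, 4.41 to 4.88 in L858R+T790M tumours and 4.63 to 5.10 in T790M tumours. In mixed-strain normals it read 7.26, 7.42, 4.57, 6.41 and 4.47, against 4.55 to 4.70 in FVB normals. *Nxpe4* read 6.90 to 7.60 in L858R tumours and 5.05 to 5.46 over the other tumours, with 8.96, 9.75, 5.30, 9.26 and 5.33 in mixed-strain normals against 5.14 to 5.45 in FVB normals. The mixed-strain normals that were high for *Ms4a8a*, replicates 1, 2 and 4, were the high ones for both genes. *Lipf* did not split them, with 4.73 to 5.38.

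**Figure D4:**
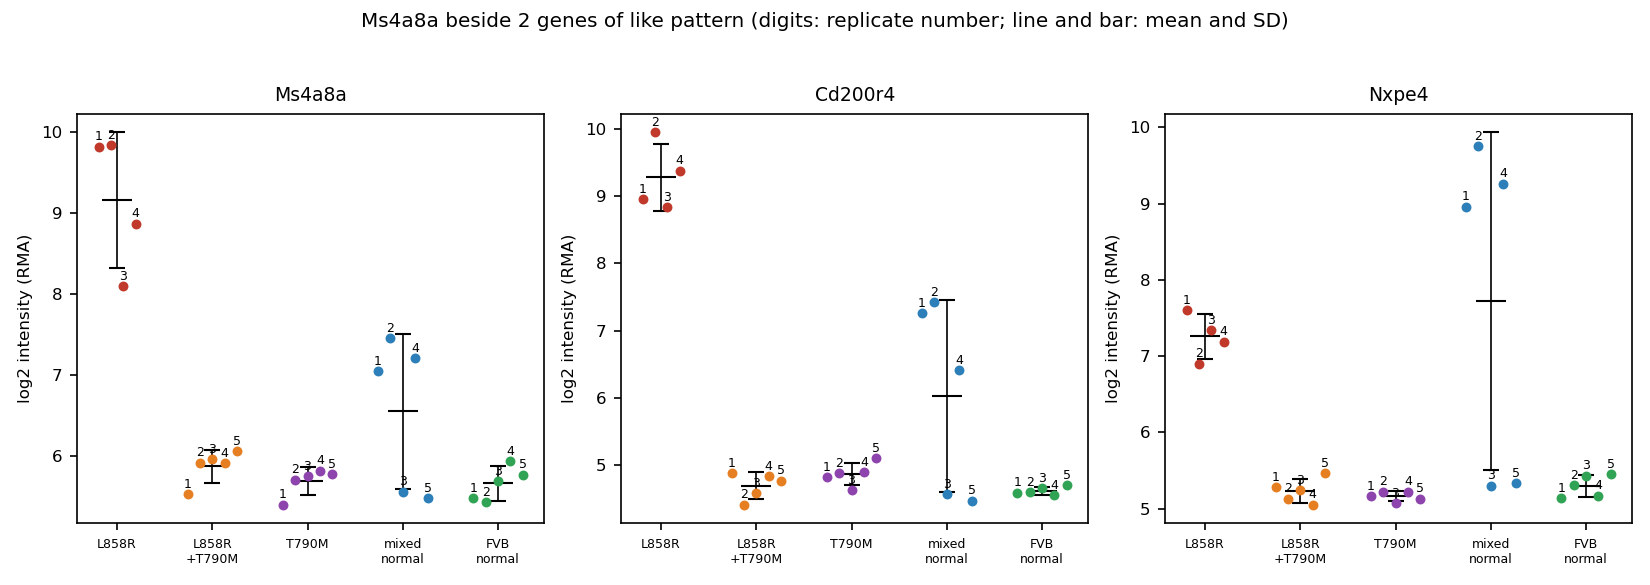
Log2 intensity (vertical axis) of *Ms4a8a*, *Cd200r4* and *Nxpe4* by group, with the replicate number above each array and group mean and SD. All L858R tumours and replicates 1, 2 and 4 of the mixed-strain normals are high for each gene, and the remaining arrays are low.

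*Vstm2a* was closest to *C130050O18Rik* (r = 0.950), the potassium channel gene *Kcna3* (r = 0.945) and the autophagy protease gene *Atg4c* (r = 0.926). *Rab27b* was closest to *Ms4a8a* (r = 0.893), *C130050O18Rik* (r = 0.862) and *Vstm2a* (r = 0.861). *Eya1* was closest to *Phactr2* (r = 0.932), *Sowaha* (r = 0.931) and *S100g* (r = 0.925), which encodes a calcium-binding protein. *S100g* averaged 11.94 ± 0.42 in L858R, 10.55 ± 0.38 in L858R+T790M and 10.83 ± 0.79 in T790M tumours, against 10.28 ± 0.27 in mixed-strain and 10.46 ± 0.18 in FVB normals (SD). *Dhrs3* was closest to *Mettl7a2* (r = 0.861), *Zfp809* (r = 0.858) and *Eya1* (r = 0.852).

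*Rab3c* was closest to *Prkar2a* (r = 0.903), *Pdcd6ip* (r = 0.901) and *Gdnf* (r = 0.894), genes of a protein kinase A subunit, the vesicle-sorting protein ALIX and a growth factor for neurons. *Gdnf* averaged 9.47 ± 0.36, 9.18 ± 0.67 and 8.04 ± 0.66 in L858R, L858R+T790M and T790M tumours, against 7.95 ± 0.08 in mixed-strain and 7.52 ± 0.20 in FVB normals. *Slc26a4* was closest to *Epgn* (r = 0.897), which encodes the EGFR ligand epigen, to *Anxa5* (r = 0.881) and to *Bcap29* (r = 0.872). *Epgn* covered 7.22 to 7.65 in L858R tumours, 7.36 to 8.23 in L858R+T790M tumours and 6.52 to 6.97 in T790M tumours, against 6.53 to 6.93 in mixed-strain and 6.79 to 6.98 in FVB normals. *Slc15a2* was closest to *Vav2* (r = 0.854), *Ccdc141* (r = 0.818) and *Slc19a3* (r = 0.814). *Peak1* was closest to *Adamts15* (r = 0.863), *Cmklr1* (r = 0.856) and *Ninj1* (r = 0.835), and *Sybu* to *Fabp12* (r = 0.919), *Sema3f* (r = 0.804) and *5830408C22Rik* (r = 0.786).

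Other genes of the same families and pathways were taken from 8 lists with 140 genes, of which 123 were measured. In all tumours against normal lungs 31 of the 123 rose and 37 fell, beside 29.8% and 23.2% of all genes. The same shares stand beside the count of each list below. All genes tested had a median difference of 0.02, and every list's median lay within 0.3 of 0.

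In the RAB3 and RAB27 secretion list 9 of 22 measured genes rose and 3 fell, with a median of 0.13. *Mlph*, an effector of RAB27A, rose by 2.04 ± 0.12 (adjusted p = 1.33e-11) and *Rab27a* itself by 1.96 ± 0.13 (adjusted p = 9.63e-11). *Rab27a* read 10.45 to 11.19 in L858R, 9.90 to 11.25 in L858R+T790M and 10.74 to 11.47 in T790M tumours, against 8.65 to 8.83 in mixed-strain and 8.82 to 9.16 in FVB normals. It was high in every tumour, while *Rab27b* was highest in those with L858R alone. *Myrip*, another RAB27 effector, fell by 1.59 ± 0.22 and *Sytl4* fell by 0.64 ± 0.18 (-0.33 with the median over its probe sets). Among syntabulin partners and exocytic SNAREs 2 of 14 rose and 6 fell. The SNARE regulator *Stxbp2* rose by 0.70 ± 0.05 and *Vamp8* by 0.51 ± 0.10, while the kinesin light chain *Klc1* fell by 0.84 ± 0.10 and *Stx2* fell by 0.56 ± 0.13.

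Of the SLC15 and SLC26 families 3 of 13 measured genes rose and 1 fell, or 6 and 1 without T790M replicate 1. *Slc15a1*, the intestinal peptide carrier, rose by 1.01 ± 0.28 and the sulfate carrier *Slc26a2* by 0.88 ± 0.12, and *Slc26a7* fell by 0.23 ± 0.06 (-0.14 with that median). Of 12 genes of airway chloride and bicarbonate transport 4 rose and 4 fell. The bicarbonate cotransporter *Slc4a4* rose by 1.65 ± 0.18 and the chloride loader *Slc12a2* by 1.52 ± 0.07, whereas the chloride channel *Cftr* fell by 2.77 ± 0.44 and the sodium channel subunit *Scnn1g* fell by 1.47 ± 0.24. *Cftr* covered 5.62 to 7.44 in L858R, 4.77 to 7.26 in L858R+T790M and 4.56 to 8.43 in T790M tumours, against 7.93 to 9.32 in mixed-strain and 9.17 to 9.55 in FVB normals. With the median over probe sets the difference was 0.87 for *Slc4a4* and -1.56 for *Cftr*. Airway cell markers were also lower, with 8 of 8 ciliated markers (median -1.75) and 4 of 6 club cell markers (median -1.26) called lower in tumours. The 8 ciliated markers averaged 6.46 to 7.24 in L858R, 6.26 to 7.17 in L858R+T790M and 6.22 to 8.31 in T790M tumours, against 8.46 to 8.97 in mixed-strain and 8.41 to 8.87 in FVB normals. The part of these cells in the levels of *Cftr* was not tested.

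Of the eyes absent genes and the DACH, PAX and homeodomain factors that act with them 2 of 12 rose and 2 fell. *Eya2* rose by 0.80 ± 0.10, and *Dach1*, a repressor that binds the same complexes, fell by 1.15 ± 0.10, and stood at -2.60 with the median over its probe sets. *Eya3* at 0.11 ± 0.04 and *Eya4* at -0.12 ± 0.05 were also called but lost the call without FVB normal replicate 1 or 5, and *Eya4* also without FVB normal replicate 2, without L858R replicate 1, 2 or 3 and without L858R+T790M replicate 2 or 5. Without FVB normal replicate 1 or 5 the count was 2 genes. Of 14 other MS4A genes 1 rose and 5 fell. *Ms4a7*, a gene of macrophages, rose by 0.80 ± 0.17, while the B cell gene *Ms4a1*, which encodes CD20, fell by 2.47 ± 0.32 and *Ms4a4d* fell by 2.33 ± 0.37. The 4 measured B cell markers averaged 7.02 to 7.30 in L858R, 6.95 to 8.10 in L858R+T790M and 6.99 to 8.51 in T790M tumours, against 8.15 to 9.12 in mixed-strain and 7.86 to 9.62 in FVB normals, and their part in the fall of *Ms4a1* was not tested.

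Of 12 partners of PEAK1 3 rose and 7 fell. *Shc1* rose by 1.13 ± 0.09 and *Src* by 0.64 ± 0.07, while *Asap1* fell by 0.66 ± 0.08 (-1.09 with the median over its probe sets) and *Csk*, which inhibits SRC, fell by 0.37 ± 0.09. Of 24 genes of retinoid metabolism and signalling 7 rose and 9 fell. The retinol saturase *Retsat* rose by 1.17 ± 0.20 and the retinol carrier *Rbp4* by 1.17 ± 0.29. *Aldh1a1*, which makes retinoic acid from retinal, fell by 2.56 ± 0.33 and *Lrat*, which stores retinol as esters, fell by 1.89 ± 0.38. The club cell markers, which an airway cell of normal lung would bring, averaged 10.45 to 12.17 in L858R, 10.58 to 11.68 in L858R+T790M and 10.93 to 12.70 in T790M tumours, against 12.66 to 13.33 in mixed-strain and 12.65 to 12.98 in FVB normals, and their part in the fall of *Aldh1a1* was not tested.

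Between tumour genotypes 1 list gene, *Ptpn12*, was called. It encodes a phosphatase that binds SHC1 and restrains receptor kinases. It read 11.71 to 12.00 in L858R, 11.69 to 12.10 in L858R+T790M and 11.41 to 11.63 in T790M tumours, against 11.69 to 11.87 in mixed-strain and 11.87 to 12.03 in FVB normals, so T790M tumours were apart below every other group. It was higher in L858R+T790M than in T790M tumours by 0.31 ± 0.07 (adjusted p = 0.0332) and in L858R than in T790M tumours by 0.56 ± 0.11 after strain adjustment (adjusted p = 0.0180). Without strain adjustment the latter gap was 0.34, and both comparisons use the same T790M tumours. The first call was lost without L858R+T790M replicate 1, 4 or 5 and without T790M replicate 1 or 4 (adjusted p 0.0503 to 0.0887), with the median over its probe sets (adjusted p = 0.0565) and with only these groups fitted (adjusted p = 0.361). In L858R+T790M against T790M tumours 0.764% of all genes were called higher and 0.824% lower. In L858R against T790M tumours the shares were 0.203% higher and 0.214% lower. None of the 123 list genes was called in L858R against L858R+T790M tumours by limma, where 0.0385% of all genes were higher and 0.033% lower. There 9 of the 123 had an unadjusted p under 0.05, beside 1735 of all 18193 genes.

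Between normal sets *Crabp1*, a carrier of retinoic acid, was the list gene called, higher in mixed-strain than in FVB normals by 0.73 ± 0.16 (adjusted p = 0.0280). The background was 0.676% of genes higher and 0.363% lower. This call was lost without any of mixed-strain normal replicates 1, 4 and 5 and FVB normal replicates 2, 4 and 5, and *Crabp1* was named after its value was seen.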

How the data were processed

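Total RNA of 24 mouse lung samples was measured on Affymetrix mouse expression arrays. The authors deposited log2 probe set intensities, for which the submitters' processing notes name RMA, with its version and parameters not given in the sources used here. Arrays hold no counts, so the number of arrays, 4 or 5 in a group, limits the precision. Of 45101 probe sets 64 were controls, and the platform annotation gave 1 gene for 34945, several for 932 and none for 9160; only those with 1 gene were used. Current symbols were found through Entrez identifiers for 34741 of them.

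The probe set with the highest mean stood for each of 18193 genes. limma 3.58.1 (R 4.3.3) fitted a mean per group with 19 residual degrees of freedom and a trend in eBayes. Two-sided p-values were Benjamini-Hochberg adjusted over the 18193 genes, and calls were made below 0.05. The model was tested on simulated data. It pools the spread of all groups, and tumours were more variable than normal lungs. Errors after ± are SE of differences unless SD is stated. Strain-adjusted differences subtract from each tumour group the normal lungs with its strain label. Where the mixed-strain normals split, as for *Ms4a8a*, subtracting their mean may not remove a strain difference.

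The members and lists were chosen with earlier results of these data known. Named genes were the 10 members, the 3 genes most correlated with each over the tumours, and from each list up to 2 called genes in each direction of a comparison. Alternatives were other scalings, the median over probe sets, every probe set, a filter on dim genes, array weights, no trend, a replicate block, only the groups compared, direct differences, all normal lungs as 1 group, and each array left out.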

Additional observations from a re-analysis of the deposited data

Results flagged for a closer look

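Among 125 group values (25 probe sets in 5 groups), 9 held a sample whose gap to its nearest neighbour was an unusually large share of the group's range, and chance gives about 1 in 20 such groups. Mixed-strain normal replicate 4 read 9.42 for *Slc26a4*, against 7.17 to 7.63 in the other mixed-strain normals. *Ms4a8a* was low in L858R+T790M replicate 1, at 5.53, and in T790M replicate 1, at 5.40. *Dhrs3* was low in T790M replicate 4, at 10.19, and *Rab27b* probe set 1439610_at was low in the same tumour, at 7.15. High values were 11.62 in L858R replicate 4 for *Slc15a2* probe set 1424730_a_at, 6.90 in T790M replicate 2 for *Peak1* probe set 1452413_at and 6.15 in T790M replicate 3 for *Rab3c* probe set 1432415_at. *Eya1* probe set 1443117_at was low in L858R+T790M replicate 5, at 3.96.

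*Ptpn12* differed between tumour genotypes by a test of the difference itself, by 0.31 in L858R+T790M against T790M tumours and by 0.56 in L858R against T790M tumours after strain adjustment. The first of these calls was lost in 8 of 33 alternatives (highest adjusted p = 0.361) and the second in none of 33. Without strain adjustment the gap between L858R and T790M tumours was 0.34, and both calls share the T790M tumours.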

How the results depend on the processing

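In tumours against normal lungs 9647 genes were called, 8992 to 9875 without single arrays and 18153 probe sets with every probe set tested. For L858R+T790M against T790M tumours the count was 289, with 481 for every probe set, 719 with array weights, 187 with the replicate block, and 0 with only these groups fitted by limma, where 1857 genes had an unadjusted p under 0.05; without single arrays it was 62 to 485. For L858R against L858R+T790M tumours it was 13, with 22 after quantile normalization, 62 for every probe set, 7 without the dimmest genes, 45 with array weights, 8 with the replicate block, 448 for the direct difference and 5 to 25 without single arrays. For L858R against T790M tumours it was 76, with 182 for every probe set, 316 with array weights, 1083 for the direct difference and 50 to 178 without single arrays. Between normal sets it was 189, with 125 after quantile normalization, 795 for every probe set, 123 without the dimmest genes, 3332 with array weights, 115 with the replicate block, 2039 with only these groups fitted and 35 to 297 without single arrays. The causes were not tested. Same-numbered samples had deviations that correlated between -0.28 and 0.44 (median 0.02), and other-numbered samples between -0.51 and 0.44 (median -0.01). These values show no clear pairing by number and cannot exclude it.

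*Eya3* changed sign with the median over probe sets, to -0.11, and the cause was not tested. With that median the strain-adjusted gap of *Slc15a2* was 0.71 to L858R+T790M and 0.86 to T790M tumours, that of *Peak1* -1.45 and -1.16, and that of *Eya1* 0.60 and 0.73, and *Eya1* in L858R+T790M against T790M tumours was 0.13, against -0.27 with the brightest probe set. *Eya4* lost its call after centring, quantile normalization, array weighting or the median over probe sets. *Ptpn12* in L858R+T790M against T790M tumours lost its call with the replicate block (adjusted p = 0.0564). The SLC15 and SLC26 list had 7 calls after centring, quantile normalization or array weighting. Of 2782 recomputed values 2679 were counted as unchanged. For this a called difference had to keep its direction and its call, and an uncalled one only to stay uncalled. Counts and untested gaps had to move little, so a small gap could still change sign.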
